A study of Homo sapiens with 8 samples.

Results

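The second deposited table of an RNA sequencing study of NYNRIN in KG-1a cells, a human myeloid leukaemia cell line, holds 4 of the study's 8 libraries. These are shCTL replicates 3 and 4, from cells given a lentivirus with a control hairpin and labelled wild type, and shNYNRIN replicates 3 and 4, from cells given a hairpin against NYNRIN and labelled knockdown. All 4 were chosen by their table alone. Cells were labelled leukaemia stem cells of bone marrow origin, were sorted, and got no other named agent. The other 4 libraries stand in a first table and serve only for a comparison at the end. Nothing in the labels makes the replicates separate cultures, and the spread behind each p-value may therefore be technical. How many hairpins were used is not said, so effects of a hairpin beyond NYNRIN cannot be told apart from those of its loss.

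NYNRIN encodes a protein with a NYN-type ribonuclease domain and a retroviral integrase-like region, and its transcript is part of a leukaemia stem cell expression score. The study's title names TXNIP, a thioredoxin-binding arrestin that links glucose uptake and redox state. A short hairpin RNA is processed into a small interfering RNA that lowers the level of the matching transcript, so the first check is the transcript itself.

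Values are FPKM, fragments per kilobase of transcript scaled to library size, a level per length. ShCTL replicate 3 was deposited as whole numbers, so 0.5 was added to it and the comparison with all 4 libraries was limited to 5894 genes with a mean of at least 10 FPKM. Lower genes were compared in the 3 libraries with decimals, that is with 1 control, over 12575 rows with at least 1 FPKM in at least 2 of them. The steps between low FPKM values placed shCTL replicate 4 at 38400000 reads and shNYNRIN replicates 3 and 4 at 51200000 and 49800000 reads, while no depth could be read from shCTL replicate 3. The shNYNRIN libraries were thus 1.33 and 1.30 times as deep as shCTL replicate 4, and the part of this depth in the results was not tested. The 4 libraries had 12511 to 12655 rows of at least 1 FPKM.

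The label was checked against marker genes. CD34, the stem cell antigen by which KG-1a is usually recognised, was near 0, with 1 and 1.79 FPKM in shCTL and 0.765 and 0.68 in shNYNRIN, and MPO, a myeloid granule enzyme, was listed at 0 in all 4. CD7 and CD38 did not pass 0.116 FPKM in any library. FLT3, CD99, PROM1 and HLA-DRA were not analysed here. The leukocyte antigens PTPRC and SPN and the receptors KIT, CD33, CD44 and ITGA4 were expressed. So were genes of megakaryocytes, such as ITGA2B (507 and 544 against 518 and 518 FPKM) and GP9 (140 and 130.0 against 137 and 141 FPKM), both named here after their values were seen. A value near 0 can be a failed estimate in this table. LDHA (0 and 0.116 against 0.0523 and 0.0538 FPKM) and CANX (0 and 0.497 against 0.427 and 0.288 FPKM), which nearly every cell uses, were near 0 as well. The low values of CD34, MPO, CD7 and CD38 alone therefore do not settle the label. That limit does not cover the high values of ITGA2B and GP9. In shCTL the megakaryocyte markers summed to 814 and 843 FPKM, and the KG-1a and progenitor markers to 195 and 199.5. Whether the cells are KG-1a was not tested, and the label is used below only as a name.

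NYNRIN (ENSG00000205978, chr14:24398786-24419288, plus strand in GRCh38, GENCODE 29) stood at 10 and 10.4 FPKM in shCTL replicates 3 and 4 and at 2.83 and 2.84 FPKM in shNYNRIN replicates 3 and 4. Both knockdown libraries lay far below both controls. With a mean under 10 FPKM the gene was tested in the 3 libraries with decimals (log2 fold change -1.57, SE 0.079, limma adjusted p = 0.000744). The call was lost when the model had no mean-variance trend or no filter on low rows, with the adjusted p between 8.89e-05 and 0.186 over 9 alternatives. With both controls and a minimum mean of 5 FPKM the log2 fold change was -1.58 (SE 0.067, limma adjusted p = 4.86e-06).

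TXNIP (ENSG00000265972, chr1:145992435-145996600, minus strand) stood at 97 and 95.4 FPKM in shCTL and 103 and 101 in shNYNRIN. The groups did not overlap, but the difference was small (log2 fold change 0.085, SE 0.027, limma adjusted p = 0.031), and 6 of its 16 alternatives lost the call, with limma adjusted p from 0.0265 to 0.151 over all 16. Among these were the fits that left out shCTL replicate 4 (log2 fold change 0.069, limma adjusted p = 0.139), shNYNRIN replicate 3 (0.072, adjusted p = 0.151) or shNYNRIN replicate 4 (0.10, adjusted p = 0.0695). Of its arrestin-domain relatives and their glucose-sensing regulators, 10 genes with TXNIP were listed and 4 reached the mean of 10 FPKM. ARRDC4, a close relative of TXNIP, rose, with 12 and 12.1 FPKM in shCTL and 14.9 and 14.9 in shNYNRIN (log2 fold change 0.26, SE 0.048, limma adjusted p = 0.00205).

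**Figure D1:**
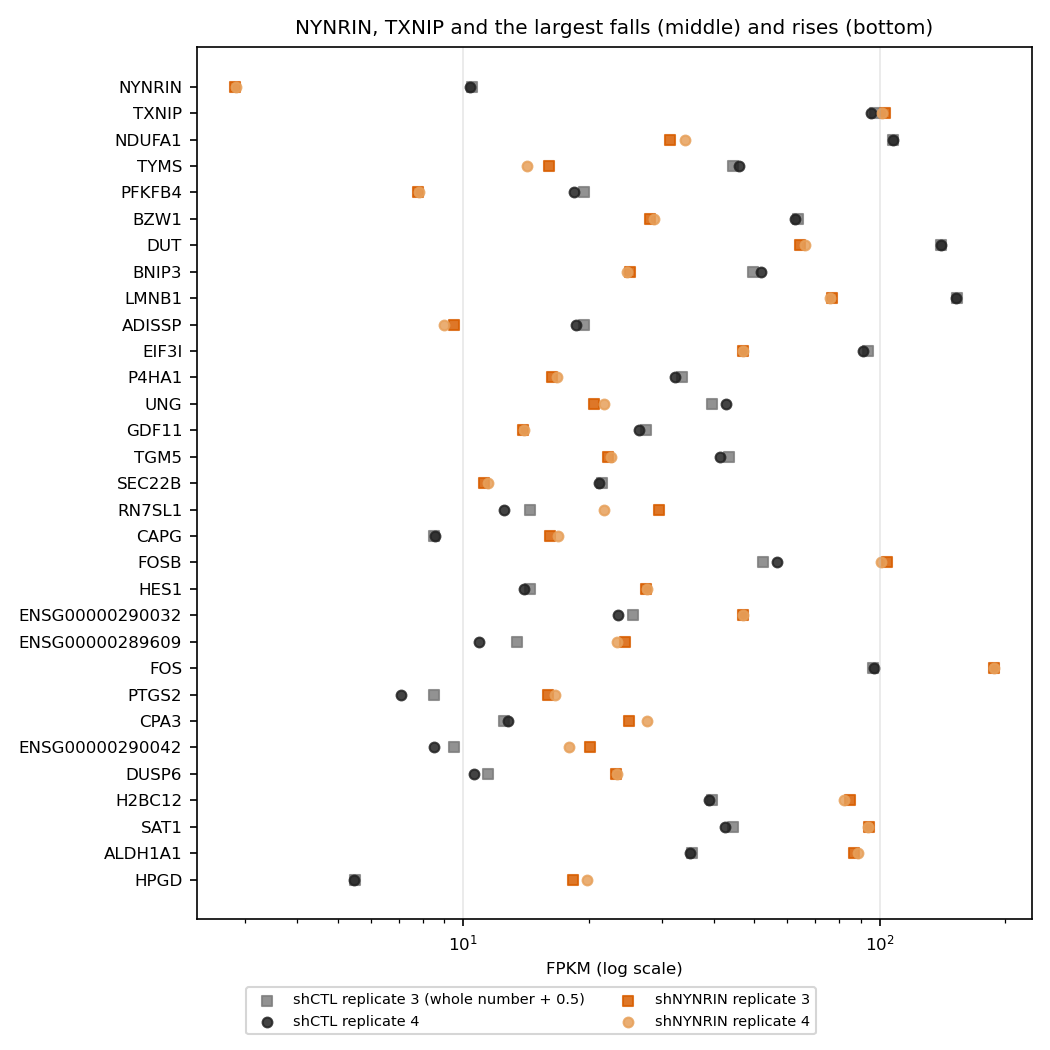
FPKM (log axis) of NYNRIN, TXNIP, 14 of the 15 largest falls and the 15 largest rises in each of the 4 libraries; squares are replicate 3 and circles replicate 4 of each group, grey (whole number plus 0.5) and black for shCTL and orange for shNYNRIN. The 2 libraries of a group lie close together for most genes, as for NDUFA1 at 107 and 108 FPKM in shCTL and 31.4 and 34.1 FPKM in shNYNRIN, while RN7SL1 is spread within shNYNRIN.

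Across the 5894 genes, 3026 (51.3%) passed an adjusted p of 0.05 in limma, 1576 (26.7%) higher and 1450 (24.6%) lower in shNYNRIN. Most of these differences were small. The median absolute log2 fold change was 0.12, and 98 genes (1.66%) rose and 92 (1.56%) fell by at least 0.5 while passing the test. Replicates differed less than that, with a median absolute log2 difference of 0.045 between the shCTL libraries and 0.038 between the shNYNRIN libraries. In 4063 genes (68.9%) the groups did not overlap. ShNYNRIN lay above both controls in 2113 genes (35.9%) and below both in 1950 (33.1%). A call was common, and each count below is to be read against these shares. The lists were chosen with earlier results of these data known, so a count beyond its share is a description only. Truncating all 4 libraries to whole numbers ended the call, among genes named here, for ALAS2, BBC3, BST2, DDIT4, DUSP10, GCLM, H1-10, HBG2, HOXB7, MX2, PMAIP1, RN7SL1, RPL17, SDF2L1, SPRY2 and TXNIP.

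**Figure D2:**
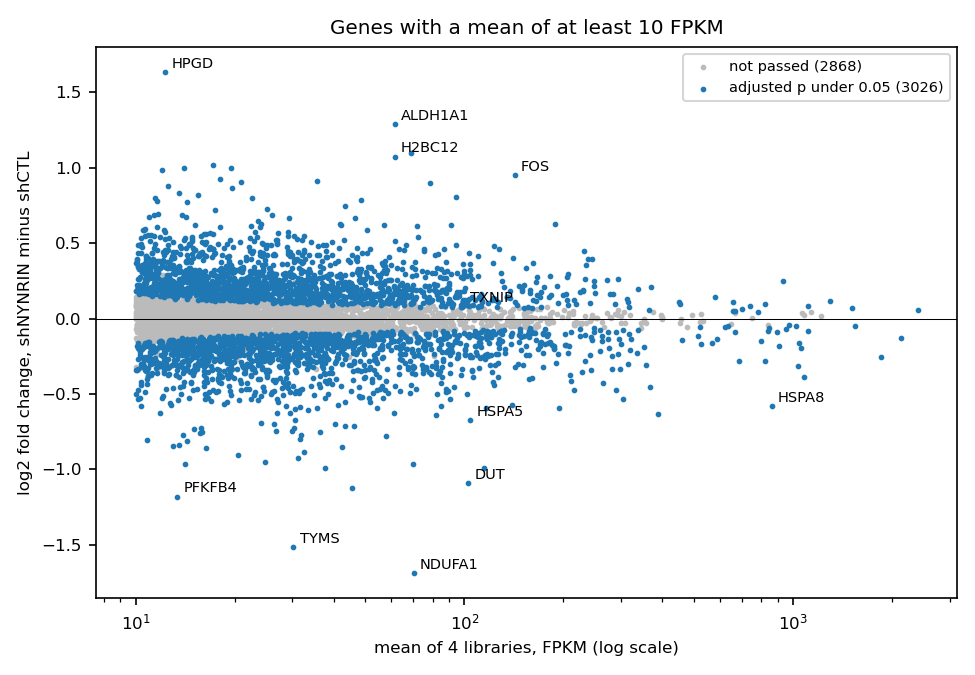
Log2 fold change of shNYNRIN against shCTL by mean level over the 4 libraries (FPKM, log axis) for 5894 genes, with the 3026 genes past an adjusted p of 0.05 in blue. Most coloured genes lie within 0.5 of 0, and NDUFA1, TYMS, HPGD and ALDH1A1 lie farthest from it.

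The largest fall was in NDUFA1, an accessory subunit of respiratory complex I, with 107 and 108 FPKM in shCTL and 31.4 and 34.1 in shNYNRIN (log2 fold change -1.69, SE 0.041, limma adjusted p = 1.07e-07). TYMS, which makes thymidylate, stood at 44 and 45.9 FPKM in shCTL and 16.1 and 14.2 in shNYNRIN (log2 fold change -1.52, SE 0.056, limma adjusted p = 7.5e-07). DUT, which removes dUTP from the nucleotide pool, stood at 140 and 140.0 FPKM in shCTL and 64.4 and 66.3 in shNYNRIN (log2 fold change -1.09, SE 0.028, limma adjusted p = 1.07e-07). The glycosylase UNG, which cuts uracil out of DNA, fell as well, with 39 and 42.8 FPKM in shCTL and 20.6 and 21.8 in shNYNRIN (log2 fold change -0.92, SE 0.049, limma adjusted p = 4.15e-06). LMNB1, the lamin B1 gene of the nuclear envelope, was among the more abundant of them, with 153 and 152 FPKM in shCTL and 76.8 and 76.1 in shNYNRIN (log2 fold change -0.99, SE 0.025, limma adjusted p = 1.07e-07).

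Further large falls were in genes that respond to low oxygen. PFKFB4, which sets the level of a glycolytic activator, had 19 and 18.4 FPKM in shCTL and 7.80 and 7.82 in shNYNRIN (log2 fold change -1.18, SE 0.052, limma adjusted p = 1.71e-06). BNIP3, a mitophagy receptor, had 49 and 51.8 FPKM in shCTL and 25.2 and 24.7 in shNYNRIN (log2 fold change -0.99, SE 0.037, limma adjusted p = 7.72e-07). The collagen prolyl hydroxylase subunit P4HA1 had 33 and 32.3 FPKM in shCTL and 16.3 and 16.8 in shNYNRIN (log2 fold change -0.95, SE 0.04, limma adjusted p = 1.56e-06). In each of these 3 genes both shNYNRIN libraries lay below both controls. Others among the 15 were BZW1 and EIF3I of translation initiation, the growth factor GDF11, the transglutaminase TGM5, the vesicle SNARE SEC22B and ADISSP, whose log2 fold changes ran from -1.12 to -0.86.

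The largest rise was in HPGD, which breaks down prostaglandins, with 5 and 5.47 FPKM in shCTL and 18.4 and 19.9 in shNYNRIN (log2 fold change 1.63, SE 0.058, limma adjusted p = 6.74e-07). ALDH1A1, a retinaldehyde dehydrogenase, had 35 and 35.03 FPKM in shCTL and 86.6 and 88.5 in shNYNRIN (log2 fold change 1.29, SE 0.031, limma adjusted p = 1.07e-07). SAT1, which acetylates polyamines for export and breakdown, had 44 and 42.4 FPKM in shCTL and 94.5 and 93.5 in shNYNRIN (log2 fold change 1.10, SE 0.033, limma adjusted p = 2.43e-07). All 3 kept the replicates of a group close together, and no shNYNRIN library came near a control. PTGS2, the inducible cyclooxygenase at the start of prostaglandin synthesis, rose from a lower level, with 8 and 7.10 FPKM in shCTL and 16.02 and 16.7 in shNYNRIN (log2 fold change 0.98, SE 0.076, limma adjusted p = 2.55e-05). The mast cell protease gene CPA3 had 12 and 12.8 FPKM in shCTL and 25 and 27.6 in shNYNRIN (log2 fold change 1.0, SE 0.053, limma adjusted p = 4.35e-06). HES1, a repressor and Notch target, had 14 and 14 FPKM in shCTL and 27.4 and 27.6 in shNYNRIN (log2 fold change 0.90, SE 0.041, limma adjusted p = 2.09e-06). The actin-capping gene CAPG had 8 and 8.57 FPKM in shCTL and 16.2 and 16.9 in shNYNRIN (log2 fold change 0.88, SE 0.051, limma adjusted p = 6.57e-06).

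Also among the 15 largest rises were FOS, FOSB, DUSP6 and H2BC12, which are described with their groups, and 3 Ensembl identifiers with no match in the annotation used. One of these, ENSG00000290042, had 9 and 8.51 FPKM in shCTL and 20.1 and 17.9 in shNYNRIN (log2 fold change 1.0, SE 0.07, limma adjusted p = 1.47e-05). RN7SL1, an RNA of the signal recognition particle with many near-identical copies, had 14 and 12.6 FPKM in shCTL and 29.6 and 21.8 in shNYNRIN (log2 fold change 0.87, SE 0.12, limma adjusted p = 0.000534), and its 2 shNYNRIN libraries differed from each other more than those of the other named rises. Of 29 genes checked (NYNRIN, TXNIP and the largest changes with an annotated position), 7 overlapped an expressed gene on the opposite strand. Among these were FOSB with ERCC1, RN7SL1 with RPS29, NDUFA1 with RNF113A, TYMS with ENOSF1, EIF3I with TMEM234, and BNIP3 with antisense transcripts. The sources used here do not say whether counting used strand, and without it their reads cannot be told apart from those of the partners.

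Genes of DNA replication fell together. These encode the MCM helicase, the GINS and CDC45 proteins that activate it, the polymerases, and the clamp and its loader. Of 33 listed, 31 reached the mean of 10 FPKM, 25 of them lower, 1 higher and 5 not past the test, with a median log2 fold change of -0.30 against 0.0070 over all genes. GINS1 had 19 and 20.5 FPKM in shCTL and 11.02 and 12.4 in shNYNRIN (log2 fold change -0.72, SE 0.061, limma adjusted p = 3.77e-05). The helicase subunit MCM6 had 100 and 99.5 FPKM in shCTL and 63.4 and 64.3 in shNYNRIN (log2 fold change -0.64, SE 0.028, limma adjusted p = 1.71e-06). MCM10, which helps start the fork, had 28 and 27.7 FPKM in shCTL and 19.5 and 18.6 in shNYNRIN (log2 fold change -0.54, SE 0.042, limma adjusted p = 2.53e-05). GINS2 had 17 and 17.1 FPKM in shCTL and 11.5 and 11.9 in shNYNRIN (log2 fold change -0.53, SE 0.047, limma adjusted p = 5.17e-05). In 27 of the 31 genes both shNYNRIN libraries lay below both controls.

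Deoxynucleotide synthesis, which feeds replication, showed the same direction in most of its genes: 9 of 11 were lower and 2 higher, with a median of -0.28. Beside TYMS and DUT, DCTPP1, which clears modified dCTP, had 37 and 37.4 FPKM in shCTL and 26.4 and 27.3 in shNYNRIN (log2 fold change -0.46, SE 0.036, limma adjusted p = 2.57e-05). Among G1 regulators, 4 of 10 tested were lower and 1 higher. The CDK4 and CDK6 inhibitor CDKN2D had 71 and 75.1 FPKM in shCTL and 42.5 and 42.3 in shNYNRIN (log2 fold change -0.78, SE 0.034, limma adjusted p = 1.77e-06). The transcription factor E2F1 had 51 and 52.1 FPKM in shCTL and 35.7 and 34.2 in shNYNRIN (log2 fold change -0.55, SE 0.035, limma adjusted p = 9.54e-06). CDK4 had 81 and 83.8 FPKM in shCTL and 60.3 and 58.5 in shNYNRIN (log2 fold change -0.47, SE 0.031, limma adjusted p = 1.23e-05). CDKN2C, another inhibitor of these kinases, went up, with 93 and 94.7 FPKM in shCTL and 127 and 125 in shNYNRIN (log2 fold change 0.42, SE 0.026, limma adjusted p = 9.23e-06). Mitosis genes were split: 6 of 25 were higher, 6 lower and 13 did not pass, with a median of -0.046. The most changed were BUB3 (-0.32) and KIF23 (-0.25), lower, and BIRC5 (0.19) and INCENP (0.18), higher.

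Promoters of the listed genes were searched for the E2F motif (TTTCGCGC or TTTGGCGC, both strands) in the 250 bases before the gene start, taken from RefSeq (GRCh38.p14). For this and the later motifs, lists were counted with a single promoter per gene. The share over all promoters took every promoter listed, whether or not its gene was expressed here. The E2F motif was found in 5 of the 28 replication genes with a promoter in the table (17.9%), against 340 of all 35116 promoters (0.968%). The deoxynucleotide list had it in 0 of 10, the G1 list in 2 of 11 and the mitosis list in 1 of 21. The share was higher still among the core histone genes described further on, with 11 of 41 (26.8%), and of these H2BC12 went the opposite way (log2 fold change 1.07). The 5 replication genes were MCM6, MCM7, POLA1, POLA2 and POLE, named here for the match. Their log2 fold changes were -0.64, -0.30, -0.23, -0.52 and -0.072, and of these POLE did not pass (limma adjusted p = 0.114) and POLA2 was tested in 3 libraries (limma adjusted p = 0.00969). MCM6 is shown because it holds the motif in 2 places, each with 2 overlapping matches, and is the most changed of the 5. The 250 bases before its start follow, with the motif in capitals, and a match is a description of the letters, not a bound site.
MCM6 (chr2:135876444-135876693, minus strand): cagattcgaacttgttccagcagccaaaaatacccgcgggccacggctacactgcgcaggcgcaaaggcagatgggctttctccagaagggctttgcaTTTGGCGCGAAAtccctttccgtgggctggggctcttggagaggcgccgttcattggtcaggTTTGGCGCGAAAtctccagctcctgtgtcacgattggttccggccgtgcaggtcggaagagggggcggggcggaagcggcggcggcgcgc

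Chaperones of the cytosol and of the endoplasmic reticulum fell together. Cytosolic heat shock proteins fold client proteins and are induced by heat shock factor, while the reticulum's chaperones are induced by the unfolded protein response. Of 14 cytosolic genes tested, 11 were lower and 0 higher, with a median of -0.25. Of 13 genes of the reticulum, 9 were lower and 0 higher, with a median of -0.17. HSPA8, the constitutive HSP70 and 1 of the most abundant transcripts named here, had 1033 and 1025 FPKM in shCTL and 684 and 693 in shNYNRIN (log2 fold change -0.58, SE 0.016, limma adjusted p = 1.55e-07). Its cofactors were lower too. DNAJA1 had 100 and 104 FPKM in shCTL and 69.05 and 66.7 in shNYNRIN (log2 fold change -0.58, SE 0.031, limma adjusted p = 4.38e-06). The nucleotide exchange factor HSPH1 had 39 and 36.9 FPKM in shCTL and 24.3 and 25.8 in shNYNRIN (log2 fold change -0.59, SE 0.047, limma adjusted p = 2.76e-05). HSP90AA1, the inducible HSP90, had 362 and 358 FPKM in shCTL and 249.5 and 248 in shNYNRIN (log2 fold change -0.53, SE 0.02, limma adjusted p = 7.72e-07).

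In the reticulum, the HSP70 chaperone HSPA5 had 128 and 128 FPKM in shCTL and 79.7 and 80.4 in shNYNRIN (log2 fold change -0.68, SE 0.026, limma adjusted p = 8.05e-07). The lectin chaperone CALR had 234 and 238 FPKM in shCTL and 186 and 179 in shNYNRIN (log2 fold change -0.37, SE 0.025, limma adjusted p = 1.26e-05). HSP90B1 had 95 and 92.3 FPKM in shCTL and 71.7 and 73.4 in shNYNRIN (log2 fold change -0.37, SE 0.031, limma adjusted p = 3.54e-05). SDF2L1, a partner of HSPA5, had 21 and 18.8 FPKM in shCTL and 17 and 14.4 in shNYNRIN (log2 fold change -0.34, SE 0.082, limma adjusted p = 0.00827), and lost its call without shNYNRIN replicate 4 (log2 fold change -0.23). Promoters were searched for the reticulum stress element (CCAAT, 9 bases of any kind, CCACG) and the heat shock element (GAA, TTC and GAA, or TTC, GAA and TTC, each 2 bases apart), on both strands. The first was found in 6 of 21 reticulum genes (28.6%) against 26 of 35116 promoters (0.074%), and the second in 2 of 18 cytosolic genes (11.1%) against 155 (0.441%). The 6, named for the match, were HSPA5, HSP90B1, CALR, CANX, CRELD2 and XBP1. XBP1, the transcription factor of the response, was lower by the test (log2 fold change -0.11, SE 0.032, limma adjusted p = 0.0179), CRELD2 did not pass (-0.31, limma adjusted p = 0.0571, 3 libraries), and CANX was not tested. The 3 reticulum genes that hold it and changed most, and HSPA8, which holds the heat shock element at 2 sites, are shown with the motifs in capitals, 250 bases before the start in each.
HSPA5 (chr9:125241344-125241593, minus strand): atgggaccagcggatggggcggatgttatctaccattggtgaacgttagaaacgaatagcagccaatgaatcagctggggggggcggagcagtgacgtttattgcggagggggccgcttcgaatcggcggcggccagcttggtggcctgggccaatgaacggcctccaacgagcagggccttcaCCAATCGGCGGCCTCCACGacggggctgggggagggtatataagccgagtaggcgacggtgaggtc
CALR (chr19:12938359-12938608, plus strand): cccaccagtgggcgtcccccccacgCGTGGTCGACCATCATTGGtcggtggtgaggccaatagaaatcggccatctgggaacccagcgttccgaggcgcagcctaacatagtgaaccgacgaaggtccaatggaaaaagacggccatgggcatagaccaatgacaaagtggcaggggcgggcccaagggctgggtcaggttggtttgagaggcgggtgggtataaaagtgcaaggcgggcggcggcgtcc
HSP90B1 (chr12:103930160-103930409, plus strand): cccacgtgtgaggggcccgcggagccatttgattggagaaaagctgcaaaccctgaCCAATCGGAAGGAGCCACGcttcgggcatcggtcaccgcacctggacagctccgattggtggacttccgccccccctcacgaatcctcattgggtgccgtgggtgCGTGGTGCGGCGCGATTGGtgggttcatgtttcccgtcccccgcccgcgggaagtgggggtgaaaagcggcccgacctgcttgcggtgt
HSPA8 (chr11:123062137-123062386, minus strand): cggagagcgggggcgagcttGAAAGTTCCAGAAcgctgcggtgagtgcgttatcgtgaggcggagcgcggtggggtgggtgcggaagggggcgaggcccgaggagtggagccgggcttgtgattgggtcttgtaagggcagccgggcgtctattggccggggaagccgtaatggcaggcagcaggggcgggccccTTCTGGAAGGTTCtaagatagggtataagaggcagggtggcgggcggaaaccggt

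Proteasome subunits, which form the core and cap of the protease that degrades ubiquitinated proteins, were lower in 21 of 25 genes and higher in 0, with a median of -0.21. The cap subunit PSMD2 had 138 and 142 FPKM in shCTL and 94.1 and 90.9 in shNYNRIN (log2 fold change -0.59, SE 0.029, limma adjusted p = 2.61e-06). The core subunit PSMA3 had 102 and 112 FPKM in shCTL and 72.9 and 74.4 in shNYNRIN (log2 fold change -0.53, SE 0.041, limma adjusted p = 2.42e-05). The cap subunit PSMD1 had 66 and 66.9 FPKM in shCTL and 46.8 and 48.6 in shNYNRIN (log2 fold change -0.48, SE 0.033, limma adjusted p = 1.31e-05). The deubiquitinase subunit PSMD14 had 52 and 52.1 FPKM in shCTL and 39.2 and 39.4 in shNYNRIN (log2 fold change -0.40, SE 0.032, limma adjusted p = 2.57e-05). In 23 of the 25 genes both shNYNRIN libraries were below both controls. Log2 fold changes across the complex ran from -0.59 to 0.013.

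Glycolysis and hypoxia-responsive genes were lower in 17 of 23 cases and higher in 3, with a median of -0.23. PFKFB4, BNIP3 and P4HA1 led, and HK2, which starts glycolysis, had 25 and 26.3 FPKM in shCTL and 19.1 and 17.8 in shNYNRIN (log2 fold change -0.47, SE 0.046, limma adjusted p = 8.05e-05). Respiratory chain genes behaved differently from NDUFA1: 23 of 32 did not pass, 8 were lower and 1 higher, with a median of -0.02. After NDUFA1 the next were UQCRFS1, the Rieske protein of complex III (65 and 63.8 against 46.2 and 46.8 FPKM, log2 fold change -0.47, SE 0.032, limma adjusted p = 1.27e-05), and ATP5MC1 of the ATP synthase ring (56 and 55.5 against 43.7 and 44.3 FPKM, log2 fold change -0.34, SE 0.032, limma adjusted p = 6.02e-05). NDUFA4, which acts in complex IV, had 83 and 87.03 FPKM in shCTL and 65.04 and 70.2 in shNYNRIN (log2 fold change -0.33, SE 0.041, limma adjusted p = 0.000279).

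In lipid synthesis 4 of 11 fatty acid genes were lower and 2 higher, and 5 of 14 cholesterol genes were lower and 3 higher. The desaturase FADS1 had 65 and 64.98 FPKM in shCTL and 43.5 and 42.3 in shNYNRIN (log2 fold change -0.59, SE 0.032, limma adjusted p = 4.38e-06). SCD had 81 and 78.7 FPKM in shCTL and 57.5 and 55.9 in shNYNRIN (log2 fold change -0.49, SE 0.032, limma adjusted p = 1.14e-05). ACSL4, which activates polyunsaturated fatty acids, had 50 and 48.9 FPKM in shCTL and 32.9 and 33.1 in shNYNRIN (log2 fold change -0.57, SE 0.034, limma adjusted p = 7.38e-06). Its relative ACSL1 went up (13 and 13.2 against 16.98 and 16.8 FPKM, log2 fold change 0.32, SE 0.045, limma adjusted p = 0.000594). INSIG1, the sterol sensor partner, had 36 and 35.4 FPKM in shCTL and 22.7 and 23.2 in shNYNRIN (log2 fold change -0.63, SE 0.038, limma adjusted p = 7.52e-06). MSMO1 had 20 and 20.2 FPKM in shCTL and 12.8 and 14.5 in shNYNRIN (log2 fold change -0.55, SE 0.06, limma adjusted p = 0.00014). MVD, an enzyme of the mevalonate pathway, was higher (0.18), with its call lost without shNYNRIN replicate 3 (0.18) and without shNYNRIN replicate 4 (0.19).

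Ribosome biogenesis genes, many of them linked to MYC, were lower in 12 of 19 cases and higher in 1, with a median of -0.14. NOP16 had 37 and 37.9 FPKM in shCTL and 24.3 and 22.2 in shNYNRIN (log2 fold change -0.67, SE 0.046, limma adjusted p = 1.3e-05). NOP58, a core protein of box C/D particles, had 122 and 116 FPKM in shCTL and 81.9 and 86.2 in shNYNRIN (log2 fold change -0.50, SE 0.037, limma adjusted p = 2.2e-05). ODC1, the first enzyme of polyamine synthesis, had 103 and 102 FPKM in shCTL and 71.1 and 75.1 in shNYNRIN (log2 fold change -0.49, SE 0.033, limma adjusted p = 1.3e-05), opposite in direction to SAT1. PES1, of large subunit assembly, was at -0.45. The ribosomal proteins themselves changed little: 26 of 68 were lower, 9 higher and 33 did not pass. Their median was -0.044 and turned to 0.012 under quantile normalization. The most changed were RPL8 (-0.32), RPL14 (-0.33), RPL17 (-0.31) and RPL6 (-0.28). The many near-identical pseudogenes of this family make single values uncertain. Of 11 host genes of small nucleolar RNAs, 6 were lower and 2 higher, led by SNHG29 (62 and 64.1 against 45.2 and 45.5 FPKM, log2 fold change -0.47, SE 0.031, limma adjusted p = 1.2e-05), SNHG6 (-0.30), SNHG12 (-0.27) and SNHG16 (0.20).

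Immediate early genes, which are induced within minutes of growth factor or stress signalling, went the other way. Of 13 tested, 9 were higher, 1 lower and 3 did not pass, with a median of 0.18. FOS had 96 and 96.7 FPKM in shCTL and 188 and 188 in shNYNRIN (log2 fold change 0.95, SE 0.024, limma adjusted p = 1.07e-07). FOSB, its close relative, had 52 and 56.6 FPKM in shCTL and 104 and 101 in shNYNRIN (log2 fold change 0.90, SE 0.039, limma adjusted p = 1.71e-06). JUN, their dimer partner, had 146 and 149 FPKM in shCTL and 228 and 230.1 in shNYNRIN (log2 fold change 0.63, SE 0.023, limma adjusted p = 7.5e-07). JUNB, another partner, had 69 and 73.6 FPKM in shCTL and 109.9 and 111 in shNYNRIN (log2 fold change 0.62, SE 0.034, limma adjusted p = 4.38e-06). JUND was the exception, with 101 and 104 FPKM in shCTL and 72.1 and 75.6 in shNYNRIN (log2 fold change -0.47, SE 0.032, limma adjusted p = 1.3e-05), named because it was the only member that was lower. Another 8 members were tested in the 3 libraries with decimals, and 6 of them were higher and 0 lower. Of the 6674 rows with a mean under 10 FPKM tested there, 9.93% were higher and 5.11% lower. Both shNYNRIN libraries can bring a row into this test without the control, so the count is a description of the genes that entered.

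Genes that feed back on MAP kinase signalling, themselves targets of the pathway, were higher in 8 of 9 cases and lower in 0, with a median of 0.31. DUSP6, a phosphatase of ERK, had 11 and 10.6 FPKM in shCTL and 23.3 and 23.3 in shNYNRIN (log2 fold change 1.01, SE 0.05, limma adjusted p = 2.98e-06). The ETS factor ETV5 had 11 and 11.3 FPKM in shCTL and 17.5 and 16.1 in shNYNRIN (log2 fold change 0.52, SE 0.053, limma adjusted p = 0.000103). SPRY2, a Sprouty inhibitor of receptor signalling, had 15 and 13.6 FPKM in shCTL and 19.6 and 19.7 in shNYNRIN (log2 fold change 0.41, SE 0.059, limma adjusted p = 0.000682). DUSP10, a phosphatase of JNK and p38, had 10 and 9.36 FPKM in shCTL and 12.6 and 13.4 in shNYNRIN (log2 fold change 0.36, SE 0.066, limma adjusted p = 0.00215). DUSP1, a stress-induced phosphatase, was the only 1 of these 9 that was not higher, and it did not pass (0.042, limma adjusted p = 0.638). A further 5 members were tested in the 3 libraries with decimals, and 2 of them were higher and 1 lower. Of the 6674 rows with a mean under 10 FPKM tested there, 9.93% were higher and 5.11% lower.

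The serum response element (CC, 6 of A or T, GG), through which growth factor signals reach immediate early genes, was found in 2 of 18 promoters of that list (11.1%) against 407 of 35116 (1.16%). These were EGR1 and SRF, named here for the match. Only the 250 bases before the start were searched, so members without a match, such as FOS, may hold the element farther away. EGR1, a zinc finger factor, had 191 and 200.3 FPKM in shCTL and 268 and 266 in shNYNRIN (log2 fold change 0.45, SE 0.026, limma adjusted p = 6.94e-06). SRF, which binds the element, rose by 0.17 (limma adjusted p = 0.00475). The EGR1 promoter is shown because it holds 2 matches, in capitals, within 105 bases of the start.
EGR1 (chr5:138465229-138465478, plus strand): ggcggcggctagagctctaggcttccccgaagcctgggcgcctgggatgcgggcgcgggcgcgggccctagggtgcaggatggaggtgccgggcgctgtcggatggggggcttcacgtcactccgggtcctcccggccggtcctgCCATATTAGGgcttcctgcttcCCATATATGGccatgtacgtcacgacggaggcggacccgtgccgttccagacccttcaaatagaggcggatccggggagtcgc

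Targets of ATF4 and the serine synthesis genes, which are raised when amino acids are short, were higher in 9 of 11 cases and lower in 2, with a median of 0.22. PSAT1, the aminotransferase of serine synthesis, had 43 and 46.05 FPKM in shCTL and 69.2 and 69.2 in shNYNRIN (log2 fold change 0.62, SE 0.036, limma adjusted p = 6.3e-06). CEBPB had 11 and 10.9 FPKM in shCTL and 15.3 and 16.8 in shNYNRIN (log2 fold change 0.48, SE 0.059, limma adjusted p = 0.000262). The mTORC1 inhibitor DDIT4 had 18 and 21.7 FPKM in shCTL and 27.8 and 27.3 in shNYNRIN (log2 fold change 0.44, SE 0.065, limma adjusted p = 0.00073). CEBPG, a dimer partner of ATF4, was lower, with 17 and 16.6 FPKM in shCTL and 12.4 and 12.4 in shNYNRIN (log2 fold change -0.43, SE 0.048, limma adjusted p = 0.000157). All 8 transporters of amino acids that reached the mean of 10 FPKM were higher, with a median of 0.23. The glycine transporter SLC6A9 had 11 and 12.4 FPKM in shCTL and 17.2 and 18.3 in shNYNRIN (log2 fold change 0.53, SE 0.055, limma adjusted p = 0.000108). SLC38A2, a glutamine carrier induced by starvation, had 88 and 86.6 FPKM in shCTL and 117 and 121 in shNYNRIN (log2 fold change 0.44, SE 0.03, limma adjusted p = 1.3e-05). SLC1A4 (0.31) and SLC3A2 (0.24), the shared heavy chain of amino acid exchangers, followed. The creatine transporter SLC6A8, tested among the low genes, went the opposite way and is given below.

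Transcription factors of stem and progenitor cells were higher in 9 of 14 cases and lower in 0, with a median of 0.19. MECOM, a factor of blood stem cells, had 9 and 9.49 FPKM in shCTL and 17.7 and 17.6 in shNYNRIN (log2 fold change 0.83, SE 0.047, limma adjusted p = 5.72e-06). HHEX had 52 and 48.3 FPKM in shCTL and 72.5 and 72.2 in shNYNRIN (log2 fold change 0.51, SE 0.041, limma adjusted p = 2.91e-05). LMO2 (92 and 89.4 against 117 and 117 FPKM) and MYB (75 and 74.5 against 94.3 and 94.7 FPKM) rose by 0.36 and 0.33. Of 6 genes of the HOX list, 5 were higher and 1 lower. HOXB2 had 15 and 15.3 FPKM in shCTL and 22.1 and 21.3 in shNYNRIN (log2 fold change 0.47, SE 0.043, limma adjusted p = 5.62e-05). HOXB9 was the lower one, with 33 and 34.4 FPKM in shCTL and 24.4 and 24.4 in shNYNRIN (log2 fold change -0.46, SE 0.036, limma adjusted p = 2.76e-05). HOXB7 was higher by 0.17, a call lost when shCTL replicate 4 (0.11), shNYNRIN replicate 3 (0.16) or shNYNRIN replicate 4 (0.19) was left out.

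The 17 genes of the leukaemia stem cell score, which hold NYNRIN, gave 6 higher and 3 lower among 10 tested. SMIM24 had 35 and 40.1 FPKM in shCTL and 22.7 and 21.5 in shNYNRIN (log2 fold change -0.75, SE 0.058, limma adjusted p = 2.55e-05). MMRN1 had 18 and 18.2 FPKM in shCTL and 27.8 and 27.7 in shNYNRIN (log2 fold change 0.57, SE 0.038, limma adjusted p = 1.21e-05). BEX3 was higher (0.35) and CDK6 lower (-0.28). Of the markers of KG-1a and leukaemic progenitors, all 6 tested were higher, among them the hyaluronan receptor CD44 (12 and 12.8 against 17.8 and 20.2 FPKM, log2 fold change 0.55, SE 0.061, limma adjusted p = 0.000158), the integrin chain ITGA4 (54 and 55.6 against 74.97 and 76.4 FPKM, log2 fold change 0.45, SE 0.03, limma adjusted p = 1.21e-05) and the stem cell factor receptor KIT (21 and 19.9 against 28.9 and 27.4 FPKM, log2 fold change 0.43, SE 0.049, limma adjusted p = 0.000181). CD34, a defining surface marker of KG-1a, was too low for either test and went the other way, with 1 and 1.79 FPKM in shCTL and 0.765 and 0.68 in shNYNRIN, both shNYNRIN libraries below both controls. Summed over the 10 of 14 markers in the table, their level was 195 and 199.5 FPKM in shCTL and 248 and 251 in shNYNRIN.

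Genes of haem synthesis, globins and red cell membranes were higher in 11 of 20 cases and lower in 4. The fetal globin gene HBG2 had 9 and 8.49 FPKM in shCTL and 12.6 and 15.9 in shNYNRIN (log2 fold change 0.60, SE 0.099, limma adjusted p = 0.00127), uncertain because its sequence is nearly that of HBG1. The erythroid haem enzyme ALAS2 had 7 and 9.23 FPKM in shCTL and 12.2 and 11.9 in shNYNRIN (log2 fold change 0.48, SE 0.085, limma adjusted p = 0.00171). The transferrin receptor TFRC was lower (90 and 88.5 against 69.2 and 69 FPKM, log2 fold change -0.37, SE 0.028, limma adjusted p = 2.44e-05), while the iron exporter SLC40A1 was higher (64 and 62.6 against 87.1 and 86.95 FPKM, log2 fold change 0.45, SE 0.029, limma adjusted p = 1.13e-05). Of 10 iron genes, 4 were higher and 3 lower, with IREB2, an iron-sensing RNA-binding protein, at -0.37 and the iron importer SLC11A2 at 0.27.

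Markers of other cell types that a sample could hold were summed in each library. Megakaryocyte and platelet markers, with 7 of 8 in the table, summed to 814 and 843 FPKM in shCTL and 828 and 829.5 in shNYNRIN. Within them GP1BA fell (63 and 64.9 against 55.8 and 55.1 FPKM, log2 fold change -0.21, SE 0.031, limma adjusted p = 0.000725) and ITGB3 rose (0.12). Monocyte markers (12 of 14, S100A8 and S100A12 at 0) summed to 14 and 16.3 FPKM in shCTL and 20.9 and 20.9 in shNYNRIN, mostly LYZ, which rose (10 and 9.74 against 13.3 and 13.7 FPKM, log2 fold change 0.38, SE 0.056, limma adjusted p = 0.000712). Granulocyte markers (8 of 12, CXCR2 at 0) summed to 39 and 39.5 FPKM in shCTL and 44.1 and 40.3 in shNYNRIN, mostly LCN2, which did not pass (-0.075, limma adjusted p = 0.232). T and NK cell markers (13 of 14, CD3E and GZMB at 0) summed to 15 and 18.1 FPKM in shCTL and 21.4 and 21.2 in shNYNRIN, mostly CD4 (0.22). B cell and plasma cell markers (7 of 10) summed to 2 and 3.14 FPKM in shCTL and 4.10 and 3.04 in shNYNRIN. Stromal and endothelial markers (10 of 12, DCN at 0) summed to 66 and 69.5 FPKM in shCTL and 85.1 and 83.4 in shNYNRIN, with ENG (0.45) and PECAM1 (0.11) both higher, the latter with its call lost without shCTL replicate 3 (0.10), shNYNRIN replicate 3 (0.11) and shNYNRIN replicate 4 (0.11). Their part in the results was not tested, and in bulk RNA fewer cells of a type and less RNA per cell cannot be told apart.

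NF-kB subunits and their feedback targets were lower in 4 of 7 cases and higher in 0, with a median of -0.38. RELB, a subunit of the non-canonical arm, had 13 and 14.7 FPKM in shCTL and 7.36 and 7.89 in shNYNRIN (log2 fold change -0.81, SE 0.063, limma adjusted p = 2.57e-05). Its partner NFKB2 had 44 and 44.5 FPKM in shCTL and 30.3 and 30.97 in shNYNRIN (log2 fold change -0.52, SE 0.034, limma adjusted p = 1.02e-05). The inhibitor NFKBIA had 24 and 24.9 FPKM in shCTL and 16.8 and 16.6 in shNYNRIN (log2 fold change -0.54, SE 0.04, limma adjusted p = 2.05e-05). NFKB1 had 12 and 12.4 FPKM in shCTL and 9.57 and 9.13 in shNYNRIN (log2 fold change -0.38, SE 0.054, limma adjusted p = 0.000594). CD83, a target and dendritic cell antigen under a mean of 10 FPKM, fell in the 3 libraries with decimals, with 13 and 13.9 FPKM in shCTL and 5.89 and 5.52 in shNYNRIN (log2 fold change -1.15, SE 0.069, limma adjusted p = 0.00102), and is named after its values were seen. MHC class I presentation genes were lower in 4 of 5 cases. The light chain B2M had 303 and 301 FPKM in shCTL and 219 and 229.8 in shNYNRIN (log2 fold change -0.43, SE 0.026, limma adjusted p = 8.04e-06). CALR and PDIA3 (-0.21), also counted with this list, load peptides. Interferon-stimulated genes were mixed, 3 higher and 2 lower of 12, with STAT2 (-0.26) among the lower and BST2 (0.24) and MX2 (0.20) among the higher. MX2 lost its call without shCTL replicate 3 and without shNYNRIN replicate 3 (0.15 in both).

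Redox enzymes, the group the study's title points to, were split. Of 20 thioredoxin and glutathione genes, 4 were higher, 6 lower and 10 did not pass, with a median of -0.028. Catalase, CAT, which breaks down hydrogen peroxide, had 39 and 39.7 FPKM in shCTL and 28.8 and 28.7 in shNYNRIN (log2 fold change -0.45, SE 0.034, limma adjusted p = 2.29e-05). The mitochondrial peroxiredoxin PRDX3 had 101 and 102 FPKM in shCTL and 77.6 and 80.3 in shNYNRIN (log2 fold change -0.36, SE 0.029, limma adjusted p = 3.02e-05). The mitochondrial thioredoxin TXN2 had 73 and 72.4 FPKM in shCTL and 89.7 and 90.5 in shNYNRIN (log2 fold change 0.30, SE 0.028, limma adjusted p = 5.82e-05). GCLM, a subunit of the enzyme that starts glutathione synthesis, was higher (0.23), and its call was lost without shNYNRIN replicate 4 (0.18).

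The BCL2 family, which sets the threshold for apoptosis and is the target class of venetoclax, gave 5 higher and 0 lower of 9, with a median of 0.14. The pore-former BAK1 had 12 and 12.5 FPKM in shCTL and 16.5 and 15.04 in shNYNRIN (log2 fold change 0.31, SE 0.055, limma adjusted p = 0.00179). The BH3-only genes PMAIP1 (33 and 31.2 against 38.5 and 41.9 FPKM, log2 fold change 0.30, SE 0.051, limma adjusted p = 0.00132), BBC3 (0.20) and BCL2L11 (0.15) were higher too. BBC3 lost its call without shCTL replicate 4 (0.16) and without shNYNRIN replicate 3 (0.15). BCL2L11 lost it without shCTL replicate 4 (0.13), shNYNRIN replicate 3 (0.14) and shNYNRIN replicate 4 (0.16). BCL2, the target of the drug, was under the mean of 10 FPKM and fell in the 3 libraries with decimals, with 2 and 2.92 FPKM in shCTL and 1.93 and 1.83 in shNYNRIN (log2 fold change -0.45, SE 0.11, limma adjusted p = 0.0377). Actin filament genes were 10 higher and 7 lower of 20, led by the myosin heavy chain MYH9 (139 and 144 against 106 and 102 FPKM, log2 fold change -0.44, SE 0.03, limma adjusted p = 1.3e-05) and the tropomyosin TPM4 (205 and 206 against 259 and 268 FPKM, log2 fold change 0.35, SE 0.024, limma adjusted p = 1.3e-05). The intermediate filament gene VIM was at 0.30 and TPM3 at -0.30.

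**Figure D3:**
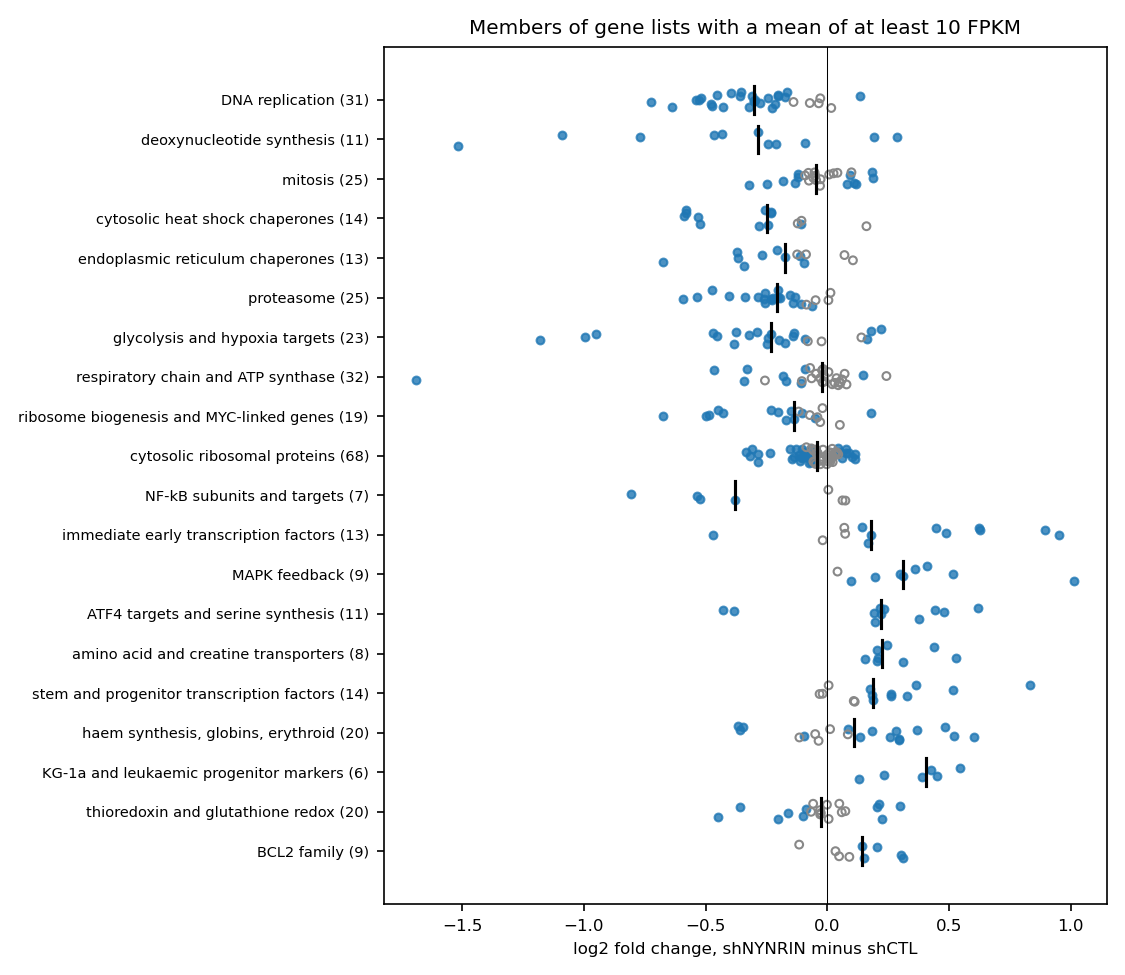
Log2 fold change of each member with a mean of at least 10 FPKM in 20 gene lists (number of members in brackets); filled blue points passed an adjusted p of 0.05, open points did not, and black bars are medians. Replication, chaperone, proteasome and glycolysis lists lie mostly left of 0, and immediate early, MAPK feedback and transporter lists mostly right of it.

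Replication-coupled core histone genes make the histones packaged onto new DNA, and their mRNAs usually end in a stem loop in place of a poly(A) tail. H2BC12, a gene of histone H2B, was the only 1 of 45 in the table that reached a mean of 10 FPKM, with 39 and 38.8 FPKM in shCTL and 84.8 and 82.2 in shNYNRIN (log2 fold change 1.07, SE 0.032, limma adjusted p = 2.4e-07). A further 25 were tested in the 3 libraries with decimals, where 13 were higher and 0 lower. Over all 6674 rows with a mean under 10 FPKM tested there, 9.93% were higher and 5.11% lower. Both shNYNRIN libraries can bring a row into this test without the control, as for H2BC7 (0 and 0.551 against 2.39 and 2.25 FPKM), so the count is a description of the genes that entered. H2BC21 had 3 and 3.84 FPKM in shCTL and 10.3 and 9.21 in shNYNRIN (log2 fold change 1.15, SE 0.085, limma adjusted p = 0.00149). H3C10 had 2 and 2.19 FPKM in shCTL and 5.91 and 6.09 in shNYNRIN (log2 fold change 1.13, SE 0.081, limma adjusted p = 0.00142). H2AC8 had 1 and 1.51 FPKM in shCTL and 5.52 and 4.97 in shNYNRIN (log2 fold change 1.31, SE 0.099, limma adjusted p = 0.00155). These 3 were named after their values were seen. H4C1 did not pass (-0.29, limma adjusted p = 0.237), and its shNYNRIN libraries overlapped the controls. Summed over the list, the level was 74 and 91.9 FPKM in shCTL and 181 and 176 in shNYNRIN. The linker histone H1-2 had 31 and 33.7 FPKM in shCTL and 52.04 and 49.6 in shNYNRIN (log2 fold change 0.63, SE 0.043, limma adjusted p = 1.33e-05). H1-10, another linker histone, was lower by the test (-0.17), though not without shNYNRIN replicate 3 (-0.11). The measured direction of the core histones was thus opposite to that of the replication genes. How much mRNA without a poly(A) tail these libraries hold was not measured, so total histone mRNA may differ from these values. Many histone genes share near-identical coding sequences, so single values are uncertain.

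**Figure D4:**
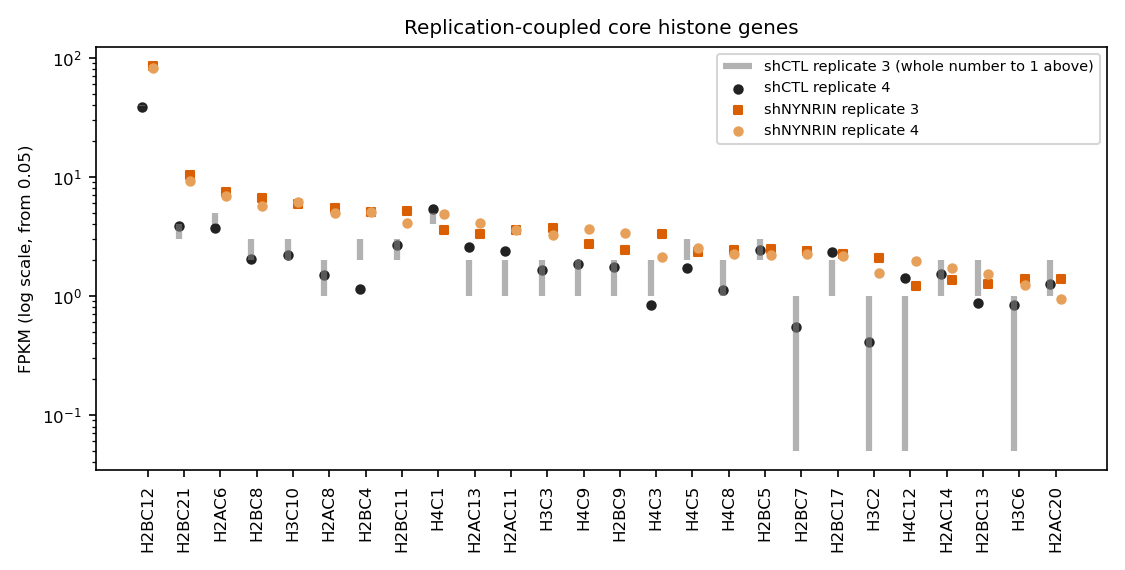
FPKM (log axis) of the replication-coupled core histone genes that were tested, ordered by their level in shNYNRIN; grey bars span the whole number of shCTL replicate 3 to 1 above it, black circles are shCTL replicate 4 and orange symbols the shNYNRIN libraries. From H2BC12 at 84.8 and 82.2 FPKM down to H2BC4 at 5.10 and 5.06 FPKM, the shNYNRIN libraries lie above both controls.

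Genes under a mean of 10 FPKM were read from shCTL replicate 4 alone against both shNYNRIN libraries, the lone control being assumed to vary like them. Of 12575 rows, 3206 (25.5%) passed limma's test, and of the 6674 rows with a mean under 10 FPKM 663 (9.93%) were higher and 341 (5.11%) lower. In 842 of those 1004 (83.9%) shCTL replicate 3 lay on the same side as shCTL replicate 4. It was read as an interval from its whole number to 1 above. Over all 6674 rows the groups did not overlap in 34.0%. These shares are not alike, since the called rows were already chosen for lying apart from shCTL replicate 4. Of all 12575 rows, 411 (3.27%) rose and 212 (1.69%) fell by at least 0.5 while passing. Groups did not overlap in 6341 (50.4%). The filter bears on the direction of these counts. Both shNYNRIN libraries can meet it without the control, and the control cannot meet it without one of them. Its part in the larger counts of rises was not tested. The count of 3206 fell to 1318 without shNYNRIN replicate 3 and to 1279 without shNYNRIN replicate 4. It was 0 without the mean-variance trend, with 4301 rows under an unadjusted p of 0.05, and 0 with no filter on low rows, with 5893.

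The creatine transporter SLC6A8 had 13 and 13.7 FPKM in shCTL and 3.23 and 2.73 in shNYNRIN (log2 fold change -1.88, SE 0.099, limma adjusted p = 0.000788, 3 libraries). It was the largest fall among low genes apart from BCYRN1, a small neuronal RNA with many near-identical copies, which had 3 and 6.26 FPKM in shCTL and 0.488 and 1.21 in shNYNRIN (log2 fold change -2.0, SE 0.24, limma adjusted p = 0.00449) from 48 reads in shCTL replicate 4. RNU7-20P and MIR4312, small RNA loci that such a library captures poorly, had at most 13 reads in a library and passed (limma adjusted p = 0.0399 and 0.0235). MIR4312 lost its call without shNYNRIN replicate 3 (-1.69) and without replicate 4 (-1.01), and RNU7-20P without shNYNRIN replicate 3 (-0.98). PHLDA1, a MAP kinase target, had 2 and 1.94 FPKM in shCTL and 7.29 and 7.36 in shNYNRIN (log2 fold change 1.5, SE 0.076, limma adjusted p = 0.000762). The histone gene H2BC4 had 2 and 1.15 FPKM in shCTL and 5.10 and 5.06 in shNYNRIN (log2 fold change 1.5, SE 0.091, limma adjusted p = 0.00105). The pseudogene SOD1P3 had 4 and 3.56 FPKM in shCTL and 13.3 and 11.3 in shNYNRIN (log2 fold change 1.54, SE 0.1, limma adjusted p = 0.00116). The pseudogene ENSG00000242156 was listed at 0 in both controls and had 2.90 and 1.72 FPKM in the shNYNRIN libraries, from 26 and 15 reads. It met the filter only through those 2 libraries, so its passing the test is no support for a rise.

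The second table lists 35971 rows, of which 22903 are absent from the first. These are rows of very low level: 3992 were at 0 in all 4 libraries, and the highest mean was 2.15 FPKM. Of the 171 that could be tested, 23 (13.5%) were higher and 0 lower, and 67 (39.2%) had both shNYNRIN libraries above both controls. Over the 6674 tested rows with a mean under 10 FPKM, 9.93% were higher by the test, and 21.4% lay above and 12.6% below both controls. The filter bears on this direction: both shNYNRIN libraries can meet it without the control, and the control cannot meet it without one of them. Shares lower were 0.0% by the test and by position. The 3 of highest mean were MIR5582, with 2 and 0.767 FPKM in shCTL and 3.16 and 2.66 in shNYNRIN from 2, 11 and 9 reads, the spliceosomal RNA variant RNVU1-29, with 0 and 1.27 FPKM in shCTL and 2.26 and 2.45 in shNYNRIN, and the long non-coding RNA ENSG00000285646, with 0 and 0.836 FPKM in shCTL and 2.44 and 2.18 in shNYNRIN. In MIR5582 the interval of shCTL replicate 3 reaches into the shNYNRIN values. The pseudogene SSBL4P had 0 and 0.357 FPKM in shCTL and 1.72 and 2.36 in shNYNRIN (log2 fold change 1.15, SE 0.18, limma adjusted p = 0.00944), from 17 reads in the control and 109 and 146 in the knockdown. The small nucleolar RNA ENSG00000206878 was listed at 0 in both controls, with 3.12 and 1.12 FPKM in the shNYNRIN libraries from 20 and 7 reads (limma adjusted p = 0.034). Like SSBL4P, it met the filter only through the shNYNRIN libraries. That both rows passed the test is therefore no support for a rise.

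The same contrast was measured in the first table, with shCTL replicates 1 and 2 and shNYNRIN replicates 1 and 2. The effect in the second table minus that in the first was tested as an interaction over all 8 libraries. NYNRIN did not enter this test, which took genes in both tables with a mean of at least 10 FPKM. Its level in the first table is not reported here, so the depth of knockdown is not compared. Of 5877 genes, 2760 (47.0%) differed by limma's test, with 1264 (21.5%) higher and 1496 (25.5%) lower in the second table. The tables may have been normalized separately and their libraries carry other numbers in the labels, so an effect of the table cannot be told apart from one of its libraries.

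HPGD, the largest rise of the second table, had 11.6 and 11.6 FPKM in shCTL and 8.97 and 8.52 in shNYNRIN in the first table (difference 2.0, SE 0.08, limma adjusted p = 1.43e-07). ALDH1A1 had 58.4 and 56.3 FPKM in shCTL and 43.5 and 43.3 in shNYNRIN there (difference 1.68, SE 0.047, limma adjusted p = 2.64e-08). FOS had 124 and 129.9 FPKM in shCTL and 87.4 and 84.3 in shNYNRIN (difference 1.51, SE 0.045, limma adjusted p = 2.64e-08). FOSB had 61.7 and 64.2 FPKM in shCTL and 41.7 and 40.9 in shNYNRIN (difference 1.49, SE 0.058, limma adjusted p = 1.35e-07). These 4 genes rose in the second table and fell in the first. NDUFA1 did not pass in the first table, where it had 117 and 113 FPKM in shCTL and 118 and 113 in shNYNRIN (difference -1.70, SE 0.059, limma adjusted p = 5.48e-08). MT2A, a metal-binding metallothionein, had 27 and 26.7 FPKM in shCTL and 17.99 and 19.5 in shNYNRIN in the second table (log2 fold change -0.51, SE 0.048, limma adjusted p = 6.36e-05), and 20.9 and 20.3 FPKM in shCTL and 42.3 and 39.9 in shNYNRIN in the first (difference -1.47, SE 0.069, limma adjusted p = 2.94e-07). RAC1, a small GTPase of the cytoskeleton, had 45 and 46.2 FPKM in shCTL and 27.1 and 26.5 in shNYNRIN (log2 fold change -0.75, SE 0.035, limma adjusted p = 2.32e-06), and 26.9 and 29.2 FPKM in shCTL and 45.97 and 44.95 in shNYNRIN in the first (difference -1.43, SE 0.061, limma adjusted p = 1.65e-07). TXNIP, which rose by 0.085 in the second table, had 80.6 and 77.9 FPKM in shCTL and 139 and 141 in shNYNRIN in the first (difference -0.73, SE 0.043, limma adjusted p = 1.56e-06).

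**Figure D5:**
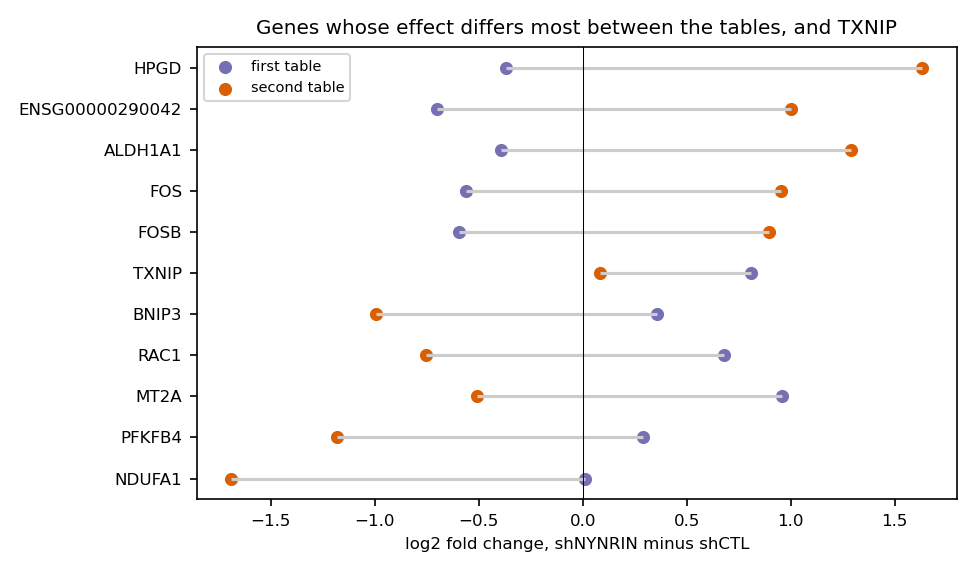
Log2 fold change of shNYNRIN against shCTL in the first table (purple) and the second (orange) for the 5 genes that differed most in each direction and TXNIP; grey lines join the pair. In 10 of the 11 genes the line crosses 0, and TXNIP stays above 0 in both.

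Differences between tables were also counted over the lists, against 21.5% upward and 25.5% downward over all genes. Replication genes had a median of -0.30 in the second table and -0.029 in the first, and 22 of 31 differed downward and 1 upward. Cytosolic heat shock genes had -0.26 and 0.18, with 11 of 13 downward. Proteasome genes had -0.21 and 0.078, with 19 of 25 downward. Glycolysis and hypoxia genes had -0.23 and 0.08, with 16 of 23 downward.

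In other lists most differences were upward. Immediate early genes had medians of 0.18 in the second table and -0.13 in the first, with 8 of 13 upward and 2 downward. MAPK feedback genes had 0.31 and -0.061, with 7 of 9 upward. Targets of ATF4 had 0.22 and -0.34, with 7 of 11 upward, and PSAT1 had 59.5 and 56.1 FPKM in shCTL and 32.7 and 33.7 in shNYNRIN in the first table (difference 1.40, SE 0.058, limma adjusted p = 1.47e-07). Amino acid transporters had 0.23 and -0.32, with all 8 upward. Stem and progenitor factors had 0.19 and -0.13, with 10 of 14 upward. H2BC12 went the same way in both tables, with 0.51 in the first and 1.07 in the second.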

How the data were processed

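RNA came from sorted KG-1a cells with a lentiviral hairpin and was made into libraries with the SMART-Seq v4 kit for Illumina sequencing, per the labels' protocols. Per the submitters' processing notes the tools were Bowtie 0.12.9, Cufflinks 2.1.1 and HTSeq, and hg38 and mm10 are listed as builds without a role. Annotation, strand and alignment settings were not given in the sources used here. No header states a unit: scale, decimals and the use of Cufflinks make the deposited values of 7 libraries FPKM. The deposited column of shCTL replicate 3 holds whole numbers and is treated as a score: where shCTL replicate 4 and shNYNRIN replicate 3 both lay between 0.5 and 0.9 FPKM, 762 of 829 rows (91.9%) were at 0, and between 10 and 30 FPKM its median difference from shCTL replicate 4 was -0.50, the pattern of truncation.

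Groups and replicate numbers came from the sample titles, and columns were matched through the library names in the labels, which number the shCTL libraries differently. Log2(value + 1) was fitted with limma 3.58.1 in R 4.3.3 (variance trend, two-sided, Benjamini-Hochberg over all rows tested, threshold 0.05). On that scale the fold change of a low gene is understated. Tables were drawn up with Python 3.11.15 and pandas 2.3.3, and the scripts were tested on simulated data. Read depth was derived from the steps of single-exon genes with GENCODE 29 lengths. Within a tolerance of 0.05 read, 96.6% to 97.2% of low values were whole reads. ShNYNRIN replicates 3 and 4 differed by a mean chi-square of 6.73 per gene (median 2.56), beyond counting noise, so they were counted as 2 libraries, which may still come from the same RNA.

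The members and lists were chosen with earlier results of these data known. Named are NYNRIN, TXNIP, the 15 largest rises and falls, the 5 largest of each direction among low rows and for the difference between tables, 3 rows absent from the first table by level and by rise, and up to 4 members of each list. Exceptions are said to be so in the text, and some genes that the rule names are not reported here. List counts and medians carry no test. Alternatives changed the pseudocount, the filter, the scaling, the variance trend, the truncation, the libraries used and the replicate block.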

Additional observations from a re-analysis of the deposited data

Results flagged for a closer look

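For 11 genes the effect of the hairpin differed between the 2 tables by the test of the interaction, the 10 largest differences and TXNIP. The differences (second minus first, log2) were 2.0 for HPGD, 1.70 for ENSG00000290042, 1.68 for ALDH1A1, 1.51 for FOS and 1.49 for FOSB. They were -1.70 for NDUFA1, -1.47 for PFKFB4, -1.47 for MT2A, -1.43 for RAC1, -1.35 for BNIP3 and -0.73 for TXNIP. All 11 passed an adjusted p of 0.05 in limma in all 162 alternative values. Apart from TXNIP they were chosen as the largest of 2760 such differences.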

How the results depend on the processing

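With all 4 libraries, 3026 genes passed. A minimum mean of 20 FPKM left 1979 of 3441 genes tested, because fewer genes were tested, and no other alternative moved the count by more than 1.5 times. Leaving out 1 library gave 2128 to 2918. Truncating all 4 libraries gave 2097. Of 153 named values, 132 kept their side of the threshold in every alternative run, and of 2397 alternative values 49 lost a call and 0 changed sign.

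With 3 libraries, 3206 rows passed, but 0 passed without the variance trend and 0 with no filter on low rows. The cause was not tested. Leaving out a shNYNRIN library gave 1279 to 1318. None of the 14 named rows kept its call in every alternative: 37 of 114 values lost it.

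The difference between tables gave 2760, and 2178 to 2673 when 1 library was left out. A replicate block by the title numbers gave 2858 genes with 4 libraries and 2533 for the difference, and PECAM1 lost its call under the block (limma adjusted p = 0.0501). The numbers did not pair the libraries (r = -0.046 between same-numbered deviations over 5894 genes), and a block with 1 control was not run. No count test was run, since 1 control has no recoverable reads. Depth limits single values of low rows, such as those from fewer than 30 reads.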
